A study of Capra hircus with 4 samples.

Results

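Among 48332 ovary nuclei of 4 goats, 434 nuclei (0.898%) carried transcripts of cytotoxic lymphocytes, the T cells and natural killer (NK) cells that kill target cells. They were chosen by their counts of unique molecular identifiers (UMIs, 1 per captured RNA molecule): at least 500 UMIs in all, at least 1 UMI of 2 or more of GNLY, NKG7, GZMA and CCL5, and at least 1 UMI of 1 or more of CD247, CD2, SKAP1 and IKZF1. Every nucleus in the deposited matrices already held 500 or more UMIs, so only the gene conditions selected. The 8 genes of this rule, the gate, are described without a test, although the fits between breeds did not leave them out. The study asked how ovary cells differ between a goat breed that bears several kids, the polytocous Nubian, and one that bears a single kid, the monotocous Du'an. It took ovaries of 2 goats per breed, all about 3 years old and all given an intravaginal device with 300 mg progesterone for 17 days to synchronise estrus, and made 1 droplet library of nuclei per goat with a 3′ kit. Each goat is 1 replicate, so comparisons rest on 2 goats per breed or on pairs of nucleus groups within the 4 goats. Where 4 values follow each other they stand in the order Du'an replicate 1, Du'an replicate 2, Nubian replicate 1 and Nubian replicate 2.

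Cytotoxic lymphocytes store perforin and granzymes in granules and release them at the contact with a target cell, where perforin opens the membrane and granzymes start cell death. Cytotoxic T cells recognise a target through the T cell receptor, whose signal passes through the CD3 chains, with CD8 as coreceptor. NK cells lack that receptor and weigh signals from activating and inhibitory receptors instead. Both kinds occur among the leukocytes of the mammalian ovary, together with macrophages.

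The 434 nuclei were spread unevenly. Du'an replicate 1 gave 7 of 9364 nuclei, Du'an replicate 2 gave 310 of 10893, Nubian replicate 1 gave 65 of 16988 and Nubian replicate 2 gave 52 of 11087. Du'an replicate 2 thus supplied 71.4% of them. The share of all nuclei was 0.0748% in Du'an replicate 1 (exact 95% binomial interval 0.0301 to 0.154%), 2.85% in Du'an replicate 2, 0.383% in Nubian replicate 1 and 0.469% in Nubian replicate 2. The 2 Nubian goats lay between the 2 Du'an goats, so the breeds overlapped, with means of 0.426% ± 0.0611 (SD, n = 2) and 1.46% ± 1.96 (SD, n = 2). A two-sided exact permutation test over goats gave p = 1, where the smallest p that 2 goats against 2 allow is 0.333. Because the gate depends on depth, it was also applied to nuclei thinned to 1000 UMIs, which left 2 of 6785, 130 of 9573, 32 of 13629 and 23 of 7953 nuclei in the same order of libraries, again with the Nubian goats in between (p = 1, same exact test). The order did not hold in 2 other versions. Without nuclei at 2% or more ribosomal protein UMIs, described below, the shares were 0.0656%, 2.70%, 0.185% and 0.0416%. Nubian replicate 2 then lay below Du'an replicate 1. Without nuclei holding 2 markers of another cell type they were 0.0320%, 0.780%, 0.0235% and 0.298%, with Nubian replicate 1 below Du'an replicate 1. The shares cannot tell more of these cells from more RNA per cell.

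**Figure D1:**
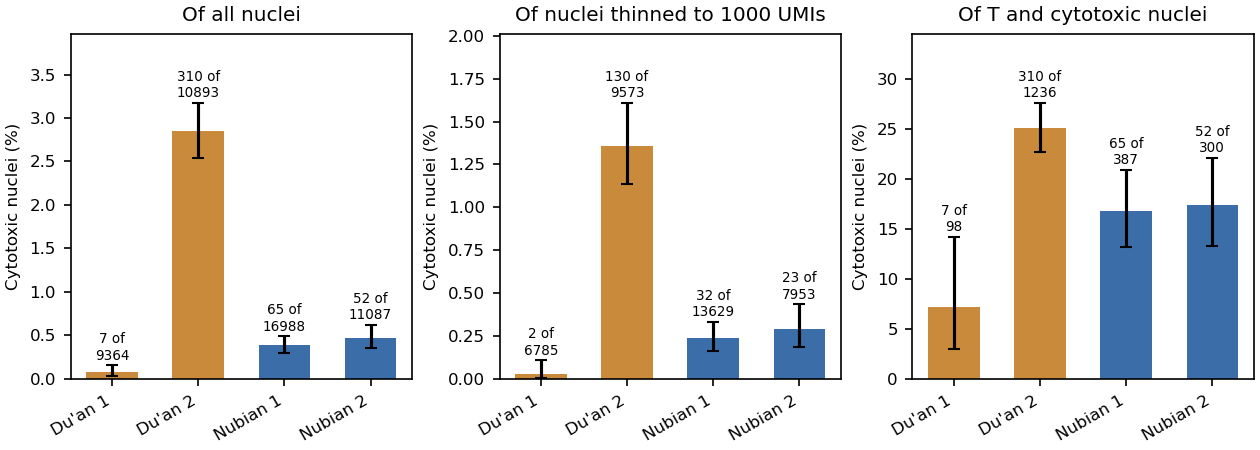
Share of cytotoxic nuclei (y axes, %) in each library (x axes), among all nuclei, among nuclei thinned to 1000 UMIs, and among T and cytotoxic nuclei together; bars are shares with exact 95% binomial intervals and the counts above them. The 2 Nubian libraries lie between the 2 Du'an libraries in each panel.

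As reference, T nuclei were taken as those with 0 UMIs of the 4 cytotoxic genes and at least 2 of the 4 lymphocyte genes, which gave 91, 926, 322 and 248 nuclei per goat, 1587 in all. Cytotoxic nuclei made up 7.14%, 25.1%, 16.8% and 17.3% of the sum of both groups (exact permutation p = 1). A second reference of 1507 macrophage nuclei held at least 2 of the genes C1QA, C1QB, C1QC, MSR1, VSIG4 and CSF1R outside the gate. The 2 references were not exclusive, and 82 nuclei (4, 42, 13 and 23 per goat) were in both.

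The libraries differed in ways that touch every result. The cytotoxic nuclei held 24868 UMIs in Du'an replicate 1, 1148930 in Du'an replicate 2, 368217 in Nubian replicate 1 and 709176 in Nubian replicate 2, with a median per nucleus of 2590, 2787, 3464 and 4338.5 UMIs. In Nubian replicate 2, 6 nuclei above the mean plus 2 SD of their library's UMI counts held 72.7% of these UMIs, and 5 of those 6 carried 118 to 838 UMIs of macrophage markers and none of the CD3 genes. In Nubian replicate 1, 4 such nuclei held 35.8%, and in Du'an replicate 2, 4 held 9.72%. In all, 12 cytotoxic nuclei had 2 or more macrophage markers. The study's limits on nuclei (UMI and gene counts within 2 SD of the library mean, at most 20% mitochondrial UMIs) leave 419 nuclei (7, 306, 60 and 46 per goat), and each comparison is given for all nuclei and under these limits. With the limits, the summed level of the 9 macrophage markers analysed fell from 3194 to 41.3 CPM, the UMIs of a gene per 1000000 UMIs of the summed nuclei, in Nubian replicate 2, where C1QC was the most abundant of them before and CD68 after, and from 575 to 28.0 CPM in Du'an replicate 2 (no test). No cytotoxic nucleus shared its barcode with a cytotoxic nucleus of another library, while 8 shared it with some other nucleus, 5 of them in Nubian replicate 2. Pairs of libraries shared 54 to 131 barcodes in all. Mitochondrial UMIs made up a median of 2.42%, 3.59%, 4.78% and 4.65% of a cytotoxic nucleus and 4.57%, 3.78%, 4.88% and 4.07% of a T nucleus, and T nuclei too held macrophage markers, at 250.1, 1250, 185 and 2553 CPM.

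A further difference concerned transcripts of ribosomal proteins, which are read mostly as mature messenger RNA. Over 80 such genes, the median cytotoxic nucleus held 0.271%, 0.33%, 2.87% and 7.63% of its UMIs. The median T nucleus held 0.171%, 0.221%, 0.24% and 0.285%, and the median of all nuclei 0.16%, 0.226%, 0.195% and 0.312%. The median macrophage nucleus held 1.80%, 0.236%, 0.356% and 3.34%, so high shares were not limited to cytotoxic nuclei. Both Nubian goats thus lay above both Du'an goats for the cytotoxic nuclei, by 4.95 percentage points between the means (two-sided exact permutation p = 0.333, the smallest possible). Cytotoxic nuclei exceeded T nuclei in 4 of 4 goats, by a mean of 2.55 percentage points (exact permutation of pairs, p = 0.125, the smallest possible). At 2% or more stood 1 of 7, 32 of 310, 35 of 65 and 48 of 52 cytotoxic nuclei, 116 in all. A further version of each comparison leaves such ribosome-rich nuclei out on both sides, which keeps 6, 278, 30 and 4 cytotoxic nuclei.

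**Figure D2:**
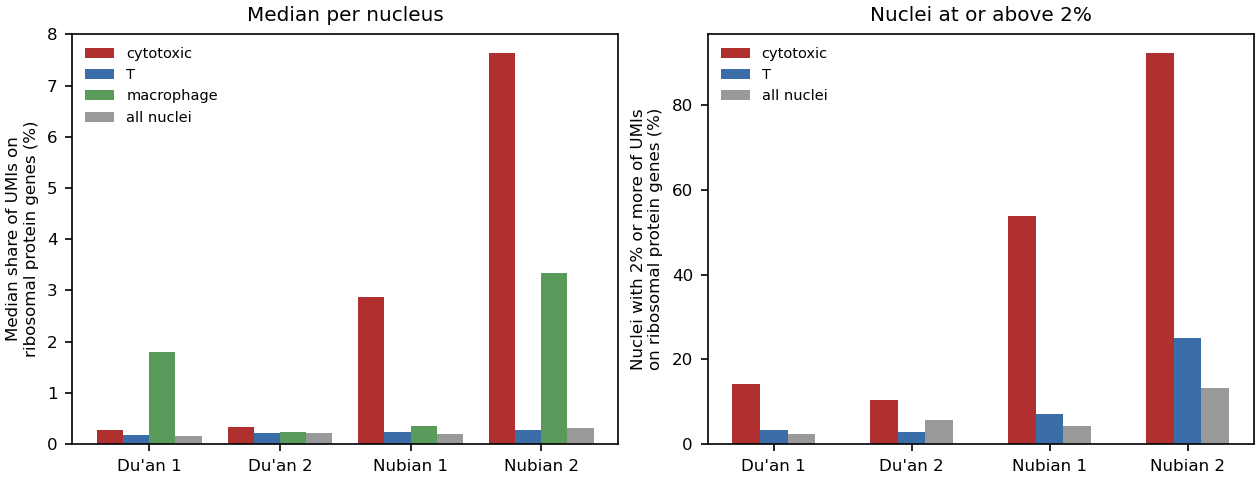
Left, median share of a nucleus's UMIs on 80 ribosomal protein genes (y axis, %) by library (x axis), for cytotoxic, T, macrophage and all nuclei; right, the percentage of nuclei at or above 2%. Cytotoxic nuclei of the Nubian goats stand at 2.87% and 7.63%, T nuclei of every library under 0.3%.

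Of the gate's own genes, CCL5, a chemokine that draws T cells and monocytes, was seen in 91.2% of the 434 nuclei, NKG7, a membrane protein of cytotoxic granules, in 66.1%, GNLY, the granule protein granulysin, in 62.2%, and GZMA, a granzyme, in 23.5%. Over all libraries the commonest sets were NKG7 with CCL5 alone (128 nuclei), GNLY with CCL5 alone (111) and GNLY, NKG7 and CCL5 (70), and all 4 genes were seen in 39. The order differed between libraries, with 79 nuclei of the first set and 99 of the second in Du'an replicate 2, 16 and 8 in Nubian replicate 1, where GNLY, NKG7 and CCL5 led with 18, and 28 and 3 in Nubian replicate 2. Summed per goat, CCL5 stood at 885, 1273, 2213 and 911 CPM. NKG7 stood at 362, 359, 451 and 285 CPM, and under the study's limits at 362, 391, 550 and 897 CPM, so that Nubian replicate 2 went from the lowest to the highest. Without the ribosome-rich nuclei NKG7 stood at 281, 297, 148 and 75.3 CPM, the last from 1 UMI, which sets no rank. GNLY ranged from 80.4 CPM in Du'an replicate 1, where it rests on 2 nuclei, to 3104 CPM in Nubian replicate 1, with 1212 and 1165 CPM in the other two. GZMA had 0 UMIs in Du'an replicate 1, which allows up to 121 CPM at that depth, and 131, 119 and 43.7 CPM in the rest. Among the lymphocyte genes, SKAP1, an adaptor of T cell adhesion, was seen in 91.2% of the nuclei, IKZF1, the lymphoid factor Ikaros, in 75.1%, CD247, the zeta chain of the T cell receptor and of NK receptors, in 72.8%, and CD2, an adhesion receptor, in 47.5%. CD247 was highest in Du'an replicate 1 at 1126 CPM and lowest in Nubian replicate 2 at 81.8 CPM. SKAP1 ran the same way, from 3137 to 293 CPM, while CCL5 and GNLY did not.

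Nuclei just inside the gate, with 2 of the 4 cytotoxic genes, numbered 7, 213, 31 and 35 by library, and those just outside, with 1 of the 4 and a lymphocyte gene, 24, 563, 123 and 149. A CD3 transcript was seen in 42.9% of the former and 37.5% of the latter in Du'an replicate 1, in 65.3% and 45.5% in Du'an replicate 2, in 74.2% and 40.7% in Nubian replicate 1 and in 74.3% and 27.5% in Nubian replicate 2. The median depth was 2590, 2661, 2907 and 4322 UMIs just inside and 4771, 2480, 3543 and 34979 UMIs just outside, so in Nubian replicate 2 unlike nuclei are set side by side. In Du'an replicate 2, CTSW stood at 293 CPM just inside and 67.0 CPM just outside, and at 481 CPM in nuclei with 3 or 4 of the genes. These values are a description.

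The label was checked against markers that the gate did not use. At least 1 UMI of CD3D, CD3E or CD3G, the invariant chains of the T cell receptor, was found in 71.7% of cytotoxic nuclei, 42.3% of T nuclei and 1.4% of nuclei with 4 or more granulosa markers, which should lack them. By library it was 42.9%, 69.7%, 80% and 76.9% of cytotoxic and 45.1%, 40.1%, 49.1% and 41.1% of T nuclei, so the 7 nuclei of Du'an replicate 1 were not above the T nuclei of that goat. CD8A or CD8B was seen in 55.5%, 15.6% and 1.29% of the same groups, and CD4, the coreceptor of helper T cells, in 1.15%, 10.5% and 0.0702%. Library medians ran from 2590 to 4338.5 UMIs for cytotoxic, 2423 to 3159 for T and 3489 to 7035.5 for granulosa-marker nuclei. After thinning to 1000 UMIs, which leaves out 6 cytotoxic nuclei, CD3 was seen in 47.9% of cytotoxic, 21.5% of T and 0.416% of granulosa-marker nuclei, CD8 in 28.7%, 8.09% and 0.335%, and CD4 in 1 of 428, 69 of 1496 and 5 of 19692. By library, CD8 was found in 2 of 7, 166 of 310, 39 of 65 and 34 of 52 cytotoxic nuclei.

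Of receptors known from NK cells, KLRF1 was seen in 18% of cytotoxic and 2.08% of T nuclei, and NCR1 in 14.3% and 2.58%. By library, NCR1 was seen in 1 of 7, 54 of 310, 4 of 65 and 3 of 52 cytotoxic nuclei, so most came from Du'an replicate 2. KLRB1, KLRD1, KLRC1, KLRK1 and FCGR3A, other receptors of NK cells, and TRAC and TRDC, constant parts of the T cell receptor, were not analysed here. A nucleus without a CD3 UMI may still come from a T cell, and the 434 nuclei are not divided here into T and NK cells. Most held CD3 transcripts, and 123 held none.

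**Figure D3:**
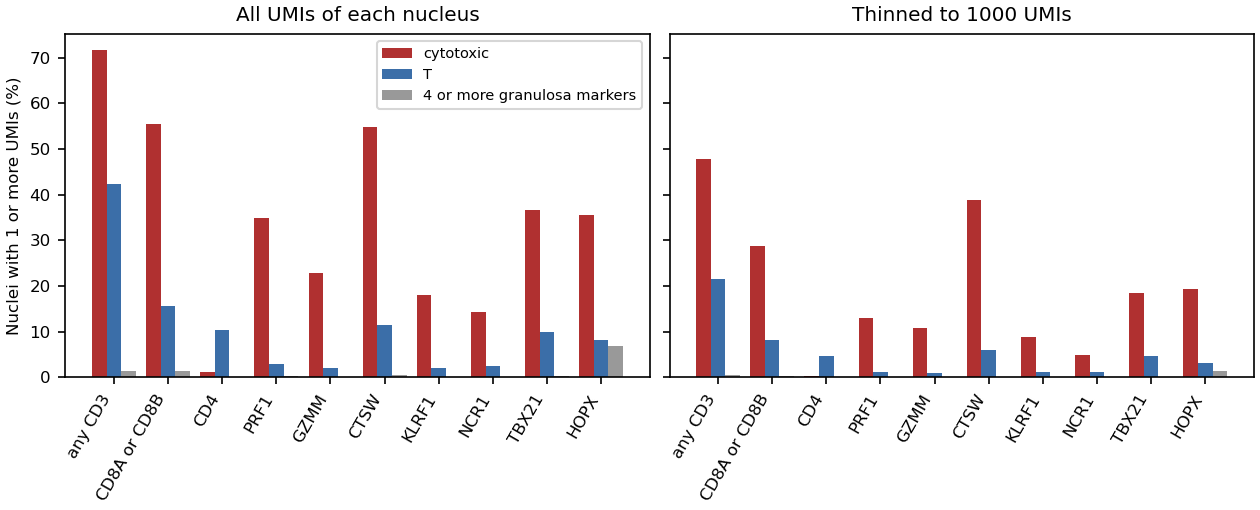
Percentage of nuclei with at least 1 UMI of a gene (y axis) for 10 genes or gene groups (x axis), in cytotoxic nuclei, T nuclei and nuclei with 4 or more granulosa markers, from all UMIs (left) and after thinning to 1000 UMIs (right). CD3, CD8, PRF1, CTSW and TBX21 are more frequent in cytotoxic than in T nuclei in both panels, and CD4 is less frequent.

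The comparison with T nuclei asked which genes set the cytotoxic nuclei apart among lymphocytes. UMIs were summed per goat and group and tested by edgeR with the goat as a block, leaving out the gate's genes. Of 10815 genes tested, 90 (0.832%) were higher and 121 (1.12%) lower in cytotoxic nuclei at an adjusted p under 0.05. Under the study's limits on nuclei, 1093 (13.3%) of 8203 genes were higher and 505 (6.16%) lower. The higher genes included all 87 of the 90 that were tested there, and the lower ones 63 of the 67 tested of the 121. Of 67 ribosomal protein genes tested under these limits 57 were among the higher ones, against 0 of 70 with all nuclei. Without nuclei at 2% or more ribosomal protein UMIs, 31 (0.404%) of 7667 genes were higher and 53 (0.691%) lower, including 27 of 70 and 34 of 82 tested of those named first. Without the goat block, edgeR called 0 genes, with 394 at an unadjusted p under 0.05. The median log2 fold change over all genes was -0.07. The T nuclei were chosen for 2 lymphocyte genes and the absence of cytotoxic transcripts, so genes that go with either are not independent of how the groups were made.

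Of 16 granule and killing genes tested, 4 were higher and 0 lower, with a median log2 fold change of 1.11. Under the study's limits 9 of 15 were higher, and without the ribosome-rich nuclei 3 of 13. PRF1, which encodes perforin, stood at 0, 151, 97.8 and 71.9 CPM in the cytotoxic nuclei, against 2.53, 9.88, 7.47 and 4.42 CPM in T nuclei. It was far above T nuclei in 3 goats, while 0 UMIs in Du'an replicate 1 allow up to 121 CPM. On the log2 scale the fold change was 3.92 ± 0.52 (SE, adjusted p = 3.24e-08 by edgeR). GZMM, a granzyme, stood at 80.4, 77.5, 130 and 50.8 CPM against 2.53, 6.84, 5.43 and 1.66 CPM. Its groups did not overlap, and the log2 fold change was 4.29 ± 0.52 (adjusted p = 1.52e-09). CTSW, a cysteine protease of cytotoxic lymphocytes, stood at 322, 360, 913 and 1282 CPM against 20.2, 32.9, 86.2 and 43.1 CPM. With all nuclei it was higher in 4 of 4 goats, by a log2 fold change of 3.91 ± 0.53 (adjusted p = 6.06e-08 by edgeR). Without the ribosome-rich nuclei the log2 fold change was 2.04 (adjusted p = 0.0221 by edgeR). In that version the cytotoxic nuclei of Nubian replicate 2 held 0 UMIs of CTSW, against 17.7 CPM in its T nuclei. TNF, the inflammatory cytokine, rose by 1.56 ± 0.44 (adjusted p = 0.0327) but stood at 0.46 without the ribosome-rich nuclei (adjusted p = 0.978). SRGN, the proteoglycan that holds granule contents, stood at 322, 393, 807 and 633 CPM against 248, 249, 268 and 579 CPM and did not pass the test (adjusted p = 0.593), except under the study's limits (log2 fold change 1.17, adjusted p = 0.00356). GZMK, another granzyme, gave 1.4 (adjusted p = 0.259) and IFNG, interferon gamma, 2.00 (adjusted p = 0.0568).

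Of 18 NK receptors and adaptors, 5 were higher and 1 lower (median 0.77), and under the study's limits 9 and 2 of 16. KLRF1, an activating receptor, stood at 121, 87.9, 48.9 and 25.4 CPM against 5.05, 7.6, 1.36 and 4.42 CPM. Every cytotoxic value lay above every T value, and the log2 fold change was 3.68 ± 0.54 (adjusted p = 5.22e-07). NCR1, the natural cytotoxicity receptor NKp46, stood at 80.4, 54.8, 16.3 and 4.23 CPM against 12.6, 8.61, 3.4 and 0 CPM, higher in each goat but overlapping between goats (log2 fold change 2.66 ± 0.63, adjusted p = 0.00516). HCST, the adaptor DAP10, rose by 2.34 ± 0.44, IL2RB, a subunit of the receptors for interleukins 2 and 15, by 1.93 ± 0.42, and CD244, a receptor of the SLAM family, by 1.57 ± 0.42. Without the ribosome-rich nuclei KLRF1, HCST and CD244 passed, while NCR1 stood at 1.93 (adjusted p = 0.3) and IL2RB at 1.22 (adjusted p = 0.272). IL18R1, a chain of the interleukin 18 receptor, fell by 1.98 (adjusted p = 0.026). TYROBP and FCER1G, adaptors that macrophages share, reached 922 and 893 CPM in Nubian replicate 2, and 0 to 258 CPM in the other goats. With the study's limits FCER1G still stood at 567 CPM there, and was higher than in T nuclei (2.97, adjusted p = 5.38e-10).

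In the list of the T cell receptor complex, 6 of 22 genes were higher and 3 lower (median 0.23), and 9 and 3 under the study's limits. CD8A stood at 80.4, 200.1, 177 and 76.1 CPM against 12.6, 30.4, 14.9 and 14.4 CPM in T nuclei. The groups did not overlap, and the log2 fold change was 2.91 ± 0.47 (adjusted p = 5.46e-06). CD8B stood at 281, 163, 144 and 69.1 CPM against 40.4, 34.5, 19.7 and 7.73 CPM (log2 fold change 2.7 ± 0.44, adjusted p = 9.78e-06). CD3E stood at 241, 351, 416 and 216 CPM against 104, 65.9, 123 and 72.3 CPM, with no overlap and a log2 fold change of 1.78 ± 0.44 (adjusted p = 0.01). CD3D gave 2.33 ± 0.45 and CD3G 1.58 ± 0.43. Without the ribosome-rich nuclei CD3E stood at 0.45 (adjusted p = 0.978), CD3G at 0.39 (adjusted p = 0.978), CD3D at 1.42 (adjusted p = 0.477) and CD8B at 1.55 (adjusted p = 0.259), whereas CD8A still passed at 2.18 (adjusted p = 0.0321). TXK, a kinase of the TEC family, rose by 1.62 ± 0.42, and passed in that version too (1.84, adjusted p = 0.00513).

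The lower genes of this list were CD4, ICOS and CD28, described here with IL7R of the cytokine receptors. CD4 stood at 0, 1.74, 5.43 and 1.41 CPM in cytotoxic nuclei and at 45.5, 35.2, 33.3 and 18.8 CPM in T nuclei. It was lower in the 3 goats other than Du'an replicate 1, where 0 UMIs allow up to 121 CPM, and the log2 fold change was -3.5 ± 0.71 (adjusted p = 5.72e-04), with few UMIs behind each cytotoxic value. ICOS, a costimulatory receptor, stood at 40.2, 44.4, 51.6 and 24 CPM against 349, 155, 189 and 197 CPM (log2 fold change -2.25 ± 0.45, adjusted p = 5.77e-04). CD28, the main costimulatory receptor of naive T cells, gave -2.28 ± 0.52 (adjusted p = 0.00347). IL7R, the interleukin 7 receptor, stood at 80.4, 222, 57 and 221 CPM against 359, 606, 397 and 471 CPM (log2 fold change -1.76 ± 0.48, adjusted p = 0.026). All 4 remained lower under the study's limits and without the ribosome-rich nuclei, where IL7R gave -3.18 (adjusted p = 7.99e-07).

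Of 24 lymphocyte transcription factors, 1 was higher and 1 lower (median -0.39). TBX21, the T-box factor T-bet of cytotoxic and type 1 helper cells, stood at 241, 161, 114 and 24 CPM against 20.2, 36.7, 25.8 and 7.73 CPM. It was higher in 4 of 4 goats (log2 fold change 2.24 ± 0.45, adjusted p = 5.1e-04 by edgeR). Without the ribosome-rich nuclei it missed the limit (1.89 ± 0.55, adjusted p = 0.0564 by edgeR). In that version the value of Nubian replicate 2 rests on 1 UMI. LEF1, a factor of naive T cells, stood at 0, 47.9, 35.3 and 31 CPM against 225, 182, 258 and 158 CPM, with no overlap (log2 fold change -2.39 ± 0.46, adjusted p = 2.74e-04). EOMES, a second T-box factor, gave 1.65 (adjusted p = 0.0795), RUNX3 0.00 (adjusted p = 0.999) and TCF7 -0.82 (adjusted p = 0.589). With the study's limits 3 of 23 were higher, EOMES, TBX21 and IKZF3, a share near the 13.3% of all genes, and 6 were lower, among them IKZF2, LEF1, FOXP1, BACH2 and MAF. ZEB2, RORA, TOX, FOXP1 and ETS1 were named for their UMI levels in cytotoxic nuclei, which do not rank the expression of different genes. None of these 5 passed with all nuclei.

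Of 18 genes of migration and tissue residence, 3 were higher and 0 lower (median 0.76), and 9 of 18 under the study's limits. S1PR5, a receptor that guides NK and effector T cells out of tissues, stood at 121, 49.6, 57 and 4.23 CPM against 0, 5.32, 1.36 and 1.1 CPM (log2 fold change 3.95 ± 0.64, adjusted p = 8.06e-06). ITGB2, the shared chain of the leukocyte integrins, stood at 483, 252, 166 and 341 CPM against 37.9, 64.6, 43.5 and 147 CPM, without overlap (log2 fold change 2.04 ± 0.43, adjusted p = 0.00127). CX3CR1, the fractalkine receptor, was 40.2 CPM against 48 in Du'an replicate 1 and higher in the other 3 goats, at 63.5, 122 and 14.1 CPM against 7.35, 2.72 and 8.28 CPM (log2 fold change 2.58 ± 0.55, adjusted p = 0.00141). CD69, a marker of tissue-resident T cells, passed only under the study's limits among the 3 versions (1.29, adjusted p = 9.74e-04).

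Of 9 cytokines and cytokine receptors 0 were higher and 1, IL7R, was lower, of 4 inhibitory receptors none passed, and of 15 cell cycle genes none passed (median 0.76), and under the study's limits PCNA and MCM5 were higher, 2 of 10 beside 13.3% of all genes. Nuclei with 2 or more of MKI67, TOP2A and CENPF, genes of dividing cells, were 0 of 7, 34 of 310, 4 of 65 and 4 of 52 cytotoxic nuclei, of which 2 and 2 in the Nubian goats carried macrophage markers. Among T nuclei they were 2 of 91, 37 of 926, 24 of 322 and 9 of 248, of which 0, 6, 4 and 6 carried macrophage markers. In Du'an replicate 2 these nuclei were 11% of cytotoxic and 4% of T nuclei, while in Nubian replicate 1 they were 6.15% and 7.45%.

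Markers of other ovarian cells are given as measured. Of the granulosa, endothelial, macrophage and stromal lists, with 10, 7, 9 and 9 genes tested, 0 passed in either direction with all nuclei, and of 5 B and plasma cell markers 2, BLK and MZB1, were lower. Under the study's limits 6 of 6 macrophage markers were lower, with C1QC at -3.09 (adjusted p = 4.06e-06). The summed granulosa markers stood at 402, 1977, 2898 and 166 CPM in cytotoxic and 611, 2751, 4352 and 420 CPM in T nuclei. SERPINE2 had the most UMIs in all 4 cytotoxic sums, which under the study's limits stood at 402, 1527, 2234 and 521 CPM. At least 2 of these markers were seen in 296 of the 434 nuclei, by library 1 of 7, 218 of 310, 60 of 65 and 17 of 52. Among all nuclei of a library the share was 52.5%, 86.1%, 94.6% and 55.7%. With all nuclei the granulosa sums were lower in cytotoxic nuclei in 4 of 4 goats and differed more between goats than between the groups of a goat. The summed stromal and smooth muscle markers stood at 523, 208, 1551 and 38.1 CPM in cytotoxic and 387, 243, 948 and 135 CPM in T nuclei. They were higher in cytotoxic nuclei in Du'an replicate 1 and Nubian replicate 1 and lower in both others. The part of all these markers in the results was not tested.

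Among genes outside the lists, the rule on largest changes with the same sign in every goat named SPN, HOPX, ADGRG1 and TAL1 as higher. SPN, the sialoglycoprotein CD43 of leukocytes, stood at 322, 239, 182 and 52.2 CPM against 30.3, 13.9, 16.3 and 17.1 CPM, with no overlap (log2 fold change 3.14 ± 0.47, adjusted p = 6.87e-07). HOPX, a homeodomain cofactor, stood at 40.2, 144, 451 and 216 CPM against 7.58, 22.8, 40.1 and 16.6 CPM (3.3 ± 0.48, adjusted p = 5.22e-07), and missed the limit without the ribosome-rich nuclei (1.99 ± 0.58, adjusted p = 0.053). ADGRG1, the adhesion receptor GPR56 of cytotoxic lymphocytes, gave 2.74 ± 0.49, and TAL1, a blood cell factor, 2.7 ± 0.78 from at most 40.2 CPM. On the lower side were PPP2R2B, a regulatory subunit of protein phosphatase 2A, at 0, 4.35, 10.9 and 2.82 CPM against 85.9, 124, 70.6 and 66.8 CPM (-3.98 ± 0.59, adjusted p = 6.31e-07), and ABCD2, a peroxisomal transporter, at 0 to 2.72 CPM against 15.5 to 50.5 CPM. SHANK2, ANPEP and ZNF366 were at 0 UMIs in the cytotoxic nuclei of every goat, and CLIC5, LRRIQ1, RGS18, DPYS and FLT3 at 0 in 3 or 2 of 4, so their fitted folds are not given.

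Of the 90 higher genes, 36 have no symbol beyond a locus tag. LOC102173834, chosen after its values were seen, stood at 0, 131, 1035 and 382 CPM against 2.53, 3.04, 46.9 and 19.9 CPM (log2 fold change 4.7 ± 0.56, adjusted p = 7.22e-10). LOC102191761, chosen likewise, is a constant-region segment by its entry in the RefSeq table of assembly ARS1.2, a class that belongs to antigen receptor genes, and stood at 0, 145, 475 and 74.7 CPM against 35.4, 30.9, 28.5 and 8.28 CPM (2.79 ± 0.51, adjusted p = 9.73e-05).

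Across 12 fits (all nuclei, the study's limits, no macrophage markers, no ribosome-rich nuclei, thinned nuclei, DESeq2, upper-quartile scaling, no count filter and each goat left out), 17 genes were higher in every one: ADGRG1, CD8A, CTSW, GZMM, HCST, ITGB2, KLRF1, PRF1, S1PR5, SPN and 7 locus tags. Another 8 were lower in every one: CAMK4, DPP4, ICOS, IL23R, LEF1, PLCL1, PPP2R2B and SIDT1. These 2 sets were named after the values were seen, and the fits share their nuclei. The fits with other gates, without nuclei holding 2 markers of another type, without shared barcodes and without the goat block are not among the 12, and the last called 0 genes.

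**Figure D4:**
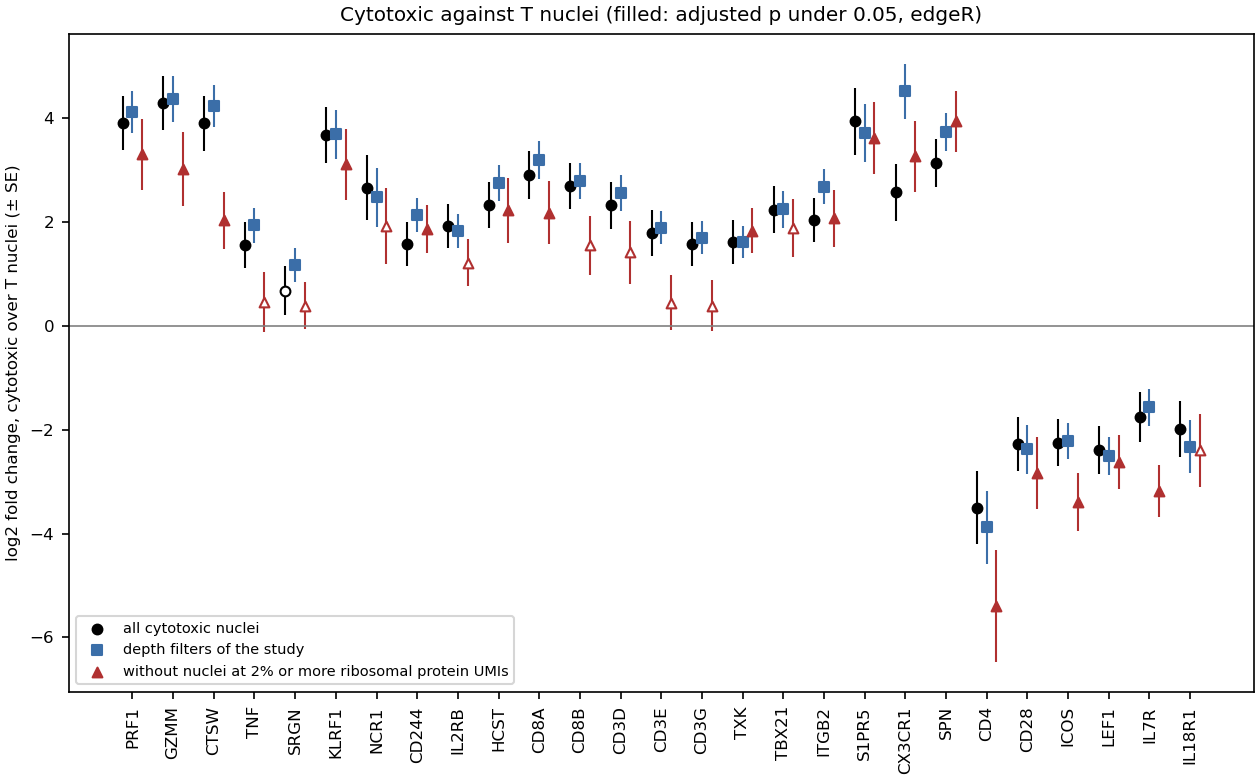
Log2 fold change of cytotoxic over T nuclei (y axis, bars are ± SE) for 27 genes (x axis) with all nuclei, under the study's limits and without ribosome-rich nuclei; filled symbols have an edgeR adjusted p under 0.05. CD3E and CD3G stand at 1.78 and 1.58 with all nuclei and at 0.45 and 0.39 without the ribosome-rich nuclei, while PRF1, CD8A, KLRF1 and CD4 pass in all 3.

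Against macrophage nuclei, the other main leukocyte group, 449 of 11110 genes (4.04%) were higher in cytotoxic nuclei and 891 (8.02%) lower by edgeR, under the study's limits 1126 (12.3%) of 9136 and 1544 (16.9%), and without ribosome-rich nuclei 349 (3.75%) of 9304 and 1002 (10.8%). Of 21 genes of the T cell receptor complex, 18 were higher and 0 lower, with a median log2 fold change of 6.02 beside -0.18 for all genes. IL2RB stood at 483, 262, 263 and 214 CPM in cytotoxic and 0, 0.585, 1.43 and 0.39 CPM in macrophage nuclei, where the latter rest on few UMIs, so no fold is given. TXK stood at 844, 230, 144 and 113 CPM against 0, 0.78, 0.956 and 0.487 CPM. Of 16 granule and killing genes 11 were higher and 2 lower, CTSC and LAMP1, a protease that activates granzymes and a lysosomal membrane protein, the latter not under the study's limits (adjusted p = 0.0989). CTSC stood at 201, 259, 141 and 622 CPM against 1636, 903, 956 and 878 CPM (-2.21 ± 0.59, adjusted p = 0.00532). Of 17 NK receptors and adaptors 12 were higher and 2 lower, TYROBP and FCER1G. FCER1G no longer passed under the study's limits (adjusted p = 0.31). Of the macrophage markers not used to choose that group, 3 of 3 tested were lower, CD14, MRC1 and CD68, with MRC1, the mannose receptor, at -3.62 ± 0.62, and at 0 UMIs in the cytotoxic nuclei of 3 of 4 goats under the study's limits. PTGS2, the prostaglandin synthase COX-2, stood at 0, 0.87, 2.72 and 0 CPM against 14.7, 93, 30.6 and 18.1 CPM. IL1B, OSM and HBEGF, an interleukin, a cytokine and a growth factor, were at 0 UMIs in the cytotoxic nuclei of all goats, and IL1B stood at 45.2, 30.2, 2.39 and 3.51 CPM in macrophage nuclei.

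Against all other nuclei, outside both the cytotoxic and the T gate, edgeR called 2167 of 16342 genes (13.3%) higher and 2507 (15.3%) lower, 2496 (16%) of 15640 and 3493 (22.3%) under the study's limits, and 924 (5.86%) of 15760 and 1107 (7.02%) without ribosome-rich nuclei. All 22 genes tested of the T cell receptor complex were higher (median 5.15 beside -0.25 for all genes), as were 14 of 16 granule and killing genes, 16 of 18 NK receptors and adaptors with NCAM1 lower, 17 of 20 migration genes, 8 of 11 cytokines and receptors and 4 of 6 inhibitory receptors. The inhibitory receptors were PDCD1, LAG3, HAVCR2 and TIGIT. LEF1, TOX2 and FOXP1 were lower among the transcription factors. CRTAM, a receptor of activated cytotoxic cells, stood at 161, 27.9, 13.6 and 42.3 CPM against 0.0747, 0.955, 0.143 and 0.0597 CPM. In the other nuclei of Du'an replicate 1 and Nubian replicate 2 these values rest on 3 UMIs each, so no fold is given. Of 10 granulosa markers 8 were lower, of 8 endothelial markers 7 and of 9 stromal and smooth muscle markers 3, or 8 of 9 under the study's limits. SHANK2, TACR1, KRT18 and CALB2 were at 0 UMIs in all cytotoxic nuclei, KRT18 without passing under the study's limits (adjusted p = 0.0607), with TACR1, the substance P receptor, at 12.3 to 18.6 CPM in the other nuclei.

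Cytotoxic nuclei with a CD3 UMI were compared with those without one in the 3 goats with at least 10 nuclei of each, 216 and 94 in Du'an replicate 2, 52 and 13 in Nubian replicate 1 and 40 and 12 in Nubian replicate 2, with the CD3 genes left out. Depth differed between the 2 sides. The median with and without a CD3 UMI was 3160 and 2338.5 UMIs in Du'an replicate 2. It was 3836 and 2410 in Nubian replicate 1 and 4024.5 and 6290 in Nubian replicate 2. EdgeR called 0 of 5958 genes (0%), with 277 at an unadjusted p under 0.05, and DESeq2 called 74 higher and 1 lower. Nuclei without a CD3 UMI held 118553 UMIs in Nubian replicate 1 and 504138 in Nubian replicate 2, and 25693 and 30883 without the nuclei with 2 macrophage markers. Under the study's limits edgeR called 146 genes (3.36% of 4349) higher and 1 (0.023%) lower, and without the ribosome-rich nuclei 0 of 3970, with 139 at an unadjusted p under 0.05. Nubian replicate 2 was left out of both versions, with 7 nuclei without a CD3 UMI in the former and 2 in the latter. Both rest on 2 goats, Du'an replicate 2 and Nubian replicate 1. Of the 147 called, 27 were ribosomal protein genes, all higher, of 49 tested, and others were TMSB10, B2M, ACTB and PFN1, abundant genes of the cytoskeleton and antigen presentation, named after their values were seen. With all nuclei the ribosomal share moved with the split, at a median of 0.36% with and 0.251% without a CD3 UMI in Du'an replicate 2, 3.84% and 0.35% in Nubian replicate 1 and 7.75% and 5.32% in Nubian replicate 2. The last goat was not in the fit that gave these calls, and the part of the ribosomal share in them was not tested. Under the study's limits only, of the 3 versions, the granule genes GZMM (3.6 ± 0.83, adjusted p = 0.00102 by edgeR) and CTSW were higher with CD3. None of the 12 NK receptors and adaptors tested there was lower, but neither were nearly all other genes, with 1 of 4349 (0.023%) called lower. For this split, KLRF1 and NCR1 did not pass in any of the 3 versions that tested them.

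Between breeds, edgeR called 0 of 7653 genes (0%) in the cytotoxic nuclei, with 792 at an unadjusted p under 0.05, and DESeq2 called 113 higher in Nubian and 0 lower. The fits between breeds did not leave out the gate's genes, so these and the following counts may hold some of them. Under the study's limits edgeR called 71 (1.72% of 4133) higher and 1 (0.0242%) lower. The ribosomal protein genes made up 14 of the 72, all higher in Nubian, and their median log2 fold change was 2.74 beside -0.03 for all 4133 genes. Without the ribosome-rich nuclei 0 of 2749 passed, with 62 at an unadjusted p under 0.05, and only 4 nuclei remained in Nubian replicate 2. The share of ribosomal transcripts, the deep nuclei and the breed moved together in these 4 libraries, and the part of the former was not tested.

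The gate's own genes are given as values. With all nuclei GNLY stood at 80.4, 1212, 3104 and 1165 CPM and CCL5 at 885, 1273, 2213 and 911 CPM, and for both genes the breeds overlapped. With the study's limits GNLY stood at 80.4, 1329, 4285 and 4254 CPM and CCL5 at 885, 1406, 3235 and 3244 CPM, with both Nubian goats above both Du'an goats. Without the ribosome-rich nuclei CCL5 stood at 703, 827, 421 and 226 CPM, both Nubian goats below both Du'an goats. GNLY stood at 93.7, 1192, 862 and 377 CPM there, overlapping. These values rest on 15, 819, 88 and 3 UMIs of CCL5 and on 2, 1180, 180 and 5 UMIs of GNLY. The UMIs of Du'an replicate 1 and Nubian replicate 2 are too few to set a rank. Of genes outside the gate, PRF1 gave 0.11 ± 1.03 on the log2 scale (adjusted p = 0.993 by edgeR), and KLRF1 -1.03 ± 1.01 (adjusted p = 0.866). CD247 and SKAP1, of the gate, were higher in both Du'an goats, with all nuclei (1126 and 621 against 337 and 81.8 CPM for CD247) and under the study's limits (1126 and 684 against 470 and 268 CPM). Without the ribosome-rich nuclei both genes overlapped between breeds, with CD247 at 1265, 670, 196 and 753 CPM. CTSW stood at 322, 360, 913 and 1282 CPM with all nuclei (2.23 ± 1.0, adjusted p = 0.459), at 322, 390, 1197 and 4688 CPM under the study's limits, and at 234, 274, 120 and 0 CPM without the ribosome-rich nuclei, where the Nubian goats were no longer above the Du'an goats and 0 UMIs allow up to 226 CPM. FCER1G stood at 40.2 and 42.6 CPM against 258 and 893 CPM (4.37 ± 1.15, adjusted p = 0.412), and passed at 4.43 ± 0.73 (adjusted p = 0.0497) under the study's limits, with 40.2 and 25.1 CPM against 319 and 567 CPM. HOPX passed there too (2.99, adjusted p = 0.0497). FCER1G stood at 46.8, 19.2, 14.4 and 75.3 CPM without the ribosome-rich nuclei, overlapping between breeds, and HOPX gave 0.93 there and did not pass.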

How the data were processed

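RNA of single ovary nuclei was sequenced in droplet libraries, 1 for each of 4 goats. The authors deposited, per library, a matrix of UMI counts for 28944 genes without normalization. Cell Ranger 5.0.0 is named in the submitters' processing notes and another version in the header of the matrices. The authors also deposited tables of marker genes with their own comparisons, which were not used.

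Libraries held 40573246 and 60566681 UMIs (Du'an) and 71613892 and 52783453 (Nubian). The gate was applied to the counts, which were summed per goat and tested by edgeR 4.0.16 (quasi-likelihood, TMM, filterByExpr, Benjamini-Hochberg, R 4.3.3). A check on simulated counts drew every sum from a shared gene profile, so it does not cover differences between goats or the few deep nuclei. An adjusted p under 0.05 was the limit, and a standard error is the fold change over the root of F. Within-goat comparisons had the goat as a block. DESeq2 1.42.0 was an alternative. Shares had exact 95% binomial intervals and exact permutation tests over goats (scipy 1.17.1). Intervals and limits from a count of 0 (3 UMIs) cover counting error only. No doublet caller was run, so nuclei holding 2 cells may remain. The study also detected doublets with the Scrublet software, a step left out of its limits on nuclei as used here. Tests compare each gene with itself only. An order of genes within a list or sum is an order of UMI counts, since nuclear 3′ libraries do not give levels per length. A CPM is a UMI count per 1000000 UMIs of the summed nuclei.

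The members and lists were chosen with earlier results of these data known. Named were the gate's genes, in each list up to 5 members of highest level and up to 5 with the largest change among those called against T nuclei, and per comparison up to 10 genes in each direction with the largest change, the same sign in every goat and a symbol. Locus tags were looked up in the RefSeq table of assembly ARS1.2. The versions thinned to 1000 UMIs and without macrophage markers, shared barcodes or ribosome-rich nuclei were added after the data were seen. Of the listed genes, 18 matched no symbol and were not analysed here.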

Additional observations from a re-analysis of the deposited data

How the results depend on the processing

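Of 43 named genes called against T nuclei, 31 of 31 still tested were called under the study's limits on nuclei, 20 of 29 without ribosome-rich nuclei, 30 of 43 by DESeq2 and 0 of 27 without the goat block. None of these 43 changed sign in any alternative. Genes not called with all nuclei did: with at least 3 of the 4 cytotoxic genes C1QB, C1QC, CD68, ACTA2 and COL1A1 gave -5.97, -5.49, -4.11, -3.26 and -2.41, and under the study's limits C1QB and C1QC gave -3.03 and -3.09. The fits with 3 of the 4 genes lacked Du'an replicate 1, which held 0 such nuclei. The cause of these sign changes was not tested.

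Counts of genes higher and lower than in T nuclei (90 and 121) were 137 and 168 with upper-quartile scaling, 115 and 41 by DESeq2, 93 and 228 with no count filter, 504 and 666 with 3 of 4 cytotoxic genes, 316 and 57 without nuclei holding 2 markers of another type, 1093 and 505 under the study's limits, 468 and 126 when thinned, 1217 and 811 without nuclei with 2 macrophage markers, 390 and 320 without shared barcodes, 31 and 53 without ribosome-rich nuclei, and 0 and 0 without the goat block. Every fit with 3 of 4 cytotoxic genes, here and below, lacked Du'an replicate 1, so the set of goats changed along with the gate. The 8 shared barcodes include deep nuclei, since the Nubian replicate 2 sum fell to 273738 UMIs without them. Leaving out 1 goat gave 37 to 88 and 52 to 91, with 37 higher without Nubian replicate 1 and 56 without Du'an replicate 1, and 52, 77 and 63 lower without Du'an replicate 1, Du'an replicate 2 and Nubian replicate 2. Against macrophages (449 and 891) the counts were 1126 and 1544 under the study's limits, 692 and 1628 without macrophage markers and 133 and 70 without the block, and 268 to 465 and 133 to 1277 with 1 goat left out, where Du'an replicate 1 (272 and 133), Du'an replicate 2 (268 and 219) and Nubian replicate 1 (271 and 376) lowered both counts. Against all other nuclei (2167 and 2507) they were 1413 higher with 3 of 4 genes, 1146 higher without markers of another type, 924 and 1107 without ribosome-rich nuclei and 970 and 878 without the block, and 853 to 1943 and 1281 to 2070 with 1 goat left out, with 853 higher without Nubian replicate 1, and 1157 and 1590 without Du'an replicate 2 and 1420 and 1281 without Nubian replicate 2.

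For the CD3 split (0 and 0) the counts were 74 and 1 by DESeq2, 26 and 16 with no count filter, 146 and 1 under the study's limits, 49 higher when thinned, 110 higher without macrophage markers and 197 and 2 without shared barcodes. Nubian replicate 2 was not in the fits under the study's limits, without macrophage markers and without shared barcodes. It had 7, 7 and 8 nuclei without a CD3 UMI there, so the set of goats changed too. With 1 goat left out the counts were 0 to 115 and 0 to 24, with 115 and 0 without Nubian replicate 2 and 24 and 24 without Du'an replicate 2. Du'an replicate 1 was in none of the fits of this split. Between breeds (0 and 0) they were 113 higher by DESeq2, 5 higher with upper-quartile scaling, 11 and 1 with no count filter, 345 and 16 without markers of another type and 71 and 1 under the study's limits. Leaving out 1 goat gave 0 to 1105 higher and 0 to 340 lower, with 1105 and 340 without Nubian replicate 1 and 43 and 1 without Nubian replicate 2, where the lone goat is assumed to vary like the others. The gate with 3 of 4 genes could not be fitted for breeds, as Du'an replicate 1 had no such nucleus, nor for the CD3 split, and the latter could not be fitted without markers of another type either.

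The breeds share replicate numbers, but the deviations of the same-numbered goats correlated at -0.00906 over 7653 genes, so the numbers do not pair the goats, and a replicate block gave 0 and 0 genes, with 651 at an unadjusted p under 0.05. The difference in share (Nubian minus Du'an) ran from -2.42 to 0.351 percentage points with 1 goat left out, positive (0.351) without Du'an replicate 2, and from -1.1 to 0.233 when thinned, also positive (0.233) without it. The cytotoxic share of T and cytotoxic nuclei ran from -8.02 to 9.92, negative without Du'an replicate 1, and was -9.39 without ribosome-rich nuclei (exact permutation p = 0.667). With 7 nuclei and 24868 UMIs in Du'an replicate 1, a gene at 0 there may stand at up to 121 CPM.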
